A study of Homo sapiens with 4 samples.

Results

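The long non-coding RNAs that carry an established name were examined in A549, a human lung adenocarcinoma cell line, after knockdown of the transcription factor gene CEBPB. Rows of the deposited table were taken whose gene name begins with LINC or SNHG, or is MALAT1, NEAT1, H19, GAS5, MEG3 or HOTAIR, and whose mean over the 4 libraries was at least 1 FPKM (a level corrected for transcript length and sequencing depth). Of 584 such rows among 57820 genes, 69 met this mean, namely 50 named LINC, 14 named SNHG, and MALAT1, NEAT1, H19, GAS5 and MEG3. The members were thus chosen by their mean FPKM over all libraries, not by the difference between groups. Total RNA came from A549 cells given control siRNA (control 1 and control 2), CEBPB siRNA-1 (1 library) or CEBPB siRNA-2 (1 library). All cells were of this single line, had their medium changed 24 h after transfection and were harvested 24 h later, and none was left untransfected. The siRNAs are alternative reagents against CEBPB, so the 2 knockdown libraries differ in reagent as well as in culture. Nothing in the labels says that the control libraries are separate cultures, and p-values measure only the spread between these samples.

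Long non-coding RNAs are transcripts with no long open reading frame that act, where a function is known, as RNA. MALAT1 is kept in the nucleus at speckles rich in splicing factors, and NEAT1 is the scaffold of paraspeckles, nuclear bodies built with proteins such as SFPQ and NONO. SNHG genes and GAS5 are hosts of small nucleolar RNAs (snoRNAs), which are cut from their introns and guide modification of ribosomal RNA, while the spliced host RNA is often short-lived through nonsense-mediated decay. H19 and MEG3 are imprinted genes expressed from the maternal allele, and H19 is also the precursor of a microRNA. LINC names are given to intergenic transcripts in order of registration, so the name by itself states no function.

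The names were checked against current annotation. All 69 members matched a RefSeq gene, and RefSeq lists 64 of them as long non-coding RNA and 5 as protein-coding. These 5 are LINC00493 (now SMIM26) and LINC00998 (SMIM30), both small membrane protein genes, LINC00116 (MTLN, a mitochondrial microprotein), LINC00085 (SPACA6, a sperm protein needed for fertilisation) and LINC00094 (BRD3OS). By position in RefSeq, 14 of the 15 SNHG and GAS5 members contain at least 1 snoRNA gene, among them GAS5 with 11, SNHG1 with 9 and SNHG14 with 84. SNHG10 had none inside its RefSeq span, and 2 LINC members also hold snoRNA genes, LINC00888 (SNHG33 in RefSeq) with 3 and LINC00843 with 1. Another gene of the same strand overlaps 22 members in GENCODE 29 and a gene of the opposite strand overlaps 31, and whether the authors' counting used strand is not given in the sources used here, so levels of overlapped members are uncertain.

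Before the values, sequences are shown for the members on which the results turn. The windows below run from 250 bases before to 50 bases after an annotated transcript start (RefSeq, GRCh38.p14, written 5′ to 3′ on the gene's strand). H19 and LINC00842 are shown because the authors' deposited table called them, and LINC00473 because the siRNAs differed for it. LINC00707, also called in that table, had no such window and was not searched. Capitals mark a match to TTGCNNAA or its reverse complement TTNNGCAA, a core of the motif bound by C/EBP factors.
H19 (chr11:2001217-2001516, minus strand): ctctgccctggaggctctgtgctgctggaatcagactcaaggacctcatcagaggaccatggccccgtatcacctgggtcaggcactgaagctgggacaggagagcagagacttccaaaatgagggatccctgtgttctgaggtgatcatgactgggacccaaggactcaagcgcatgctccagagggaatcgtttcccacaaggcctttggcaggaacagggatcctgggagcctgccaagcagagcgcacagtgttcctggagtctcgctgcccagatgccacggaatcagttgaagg
LINC00842 (chr10:46398112-46398411, plus strand): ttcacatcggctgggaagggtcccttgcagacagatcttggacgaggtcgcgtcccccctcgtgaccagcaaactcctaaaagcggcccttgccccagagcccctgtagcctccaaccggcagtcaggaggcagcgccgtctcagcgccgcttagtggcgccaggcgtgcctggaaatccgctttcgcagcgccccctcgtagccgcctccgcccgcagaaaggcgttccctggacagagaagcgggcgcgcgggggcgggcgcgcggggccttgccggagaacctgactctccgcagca
LINC00473 (chr6:165987990-165988289, minus strand): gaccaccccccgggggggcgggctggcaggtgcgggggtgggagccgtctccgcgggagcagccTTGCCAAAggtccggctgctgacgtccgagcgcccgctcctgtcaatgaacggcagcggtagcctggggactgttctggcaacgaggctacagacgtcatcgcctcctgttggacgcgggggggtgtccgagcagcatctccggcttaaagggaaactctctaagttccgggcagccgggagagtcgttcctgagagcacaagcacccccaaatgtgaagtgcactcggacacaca
A match was found in the LINC00473 window, beginning at position -186 from the start, and none in the other 2. It was present in 12.7% of 27305 genes with such a window and in 5 of 54 members (9.26%), namely LINC00339, LINC00973, LINC00473, LINC00843 and LINC00493. The full palindrome TTGCGCAA was in 0.172% of all genes and in 0 members. TGACNNNGC, the core of the antioxidant response element bound by NRF2, was in 16.1% of all genes and in 9 members (16.7%), on either strand. A match is a description of letters, not evidence of binding. Whether A549 cells use these annotated starts was not tested, so the lack of a match does not cover other starts of a gene. H19 RNA also holds the hairpin of miR-675, whose mature strands (RefSeq, seed bases 2 to 8 in capitals) are printed because the host transcript was the member with the lowest change. Levels of these small RNAs were not analysed here.
hsa-miR-675-5p: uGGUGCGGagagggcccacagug
hsa-miR-675-3p: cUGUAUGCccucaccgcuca

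Starts of the snoRNA hosts are shown next, since this family is described as a group. Each window has the 10 bases before the annotated start and the 20 after it, and capitals mark each C followed by at least 4 pyrimidines that begins within 10 bases of the start, the form of the 5′-terminal oligopyrimidine tract of ribosomal protein genes.
SNHG5 (chr6:85678714-85678743, minus strand): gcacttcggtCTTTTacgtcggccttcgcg
SNHG12 (chr1:28581854-28581883, minus strand): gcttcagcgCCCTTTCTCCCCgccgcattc
SNHG16 (chr17:76557754-76557783, plus strand): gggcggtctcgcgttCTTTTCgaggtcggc
SNHG8 (chr4:118278752-118278781, plus strand): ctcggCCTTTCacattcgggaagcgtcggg
SNHG7 (chr9:136728165-136728194, minus strand): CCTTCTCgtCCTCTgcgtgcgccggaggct
GAS5 (chr1:173869026-173869055, minus strand): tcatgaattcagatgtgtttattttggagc
SNHG1 (chr11:62855866-62855895, minus strand): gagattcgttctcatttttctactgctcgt
SNHG3 (chr1:28505933-28505962, plus strand): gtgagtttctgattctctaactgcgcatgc
Such a run was present in 8 of 12 hosts with a window (66.7%), beside 38.4% of all genes. It lay exactly at the annotated start in SNHG5 and SNHG12 only, or 16.7% of the hosts beside 5.14% of all genes. The start used in these cells was not tested, so a window without the run does not show that the host lacks the tract. SNHG9, SNHG15 and SNHG6 are not among the 12.

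Across the libraries, FPKM columns summed to between 494066 and 528606, and the authors' mean normalised counts summed to 8341083 reads, which is the depth as far as the table shows it. The members made up 0.228% and 0.206% of control FPKM, 0.184% under siRNA-1 and 0.243% under siRNA-2. CEBPB itself was at 78.7 and 80.9 FPKM under control siRNA and at 12.9 and 10.97 with siRNA-1 and siRNA-2 (limma adjusted p = 0.0167). Epithelial identity was checked with 7 markers, all of which reached the mean of 1 FPKM. Their summed level was 4270 and 5840 FPKM under control siRNA and 3030 to 4010 in the siRNA libraries, and KRT18 fell in the authors' deposited table, the only one of the 7 called there. The markers did not move one way: both siRNA libraries were below both controls for 3 of them and above both for 2, namely KRT7 (671 and 777 against 1200 and 1160 FPKM) and KRT19 (2.41 and 3.28 against 5.32 and 7.38 FPKM). The leukocyte markers (4) and endothelial markers (2) were listed at 0 throughout. Of 5 fibroblast markers, COL1A1 reached 1 FPKM and rose in the authors' deposited table, and the 5 summed to 0.592 and 0.734 FPKM under control siRNA and 2.3 and 4.48 in the siRNA libraries. The part of either shift in the results was not tested.

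Most members differed little between the groups. On the log2(FPKM + 1) scale, where changes of weakly expressed genes appear smaller, 51 of the 69 differed between the group means by less than 0.5 (73.9%, beside 80.6% of the 14068 genes tested). Their median difference was -0.0063, beside 0.001 over all genes, and the range ran from -2.68 for H19 to 1.65 for LINC00707. In limma with Benjamini-Hochberg adjustment over all genes, 0 members were called higher and 0 lower, where 0.235% of all genes were called, 0.064% higher and 0.171% lower. At an unadjusted limma p below 0.05 there were 5 higher and 2 lower members (10.1%, beside 12.2% of all genes). The authors' deposited table, which rests on read counts of the same libraries, gives an adjusted p for 67 members and calls 3 of them (4.48%, beside 4.14% of all its genes), with LINC00707 and LINC00842 higher (beside 2.71% of all its genes) and H19 lower (beside 1.42%). Both siRNA libraries lay above both controls for 14 members (beside 23.5% of all genes) and below both for 11 (beside 21%), together 36.2% of members beside 44.5% of all genes, so that share is under its background. A limma fit with the siRNAs as separate groups, whose spread comes from the 2 controls only, called 2 members higher and 5 lower, where it called 6.9% of all genes. The 2 members with 1 group mean below 1 FPKM are LINC00313 (siRNA mean) and MEG3 (control mean), so both met the mean through the other group.

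**Figure D1:**
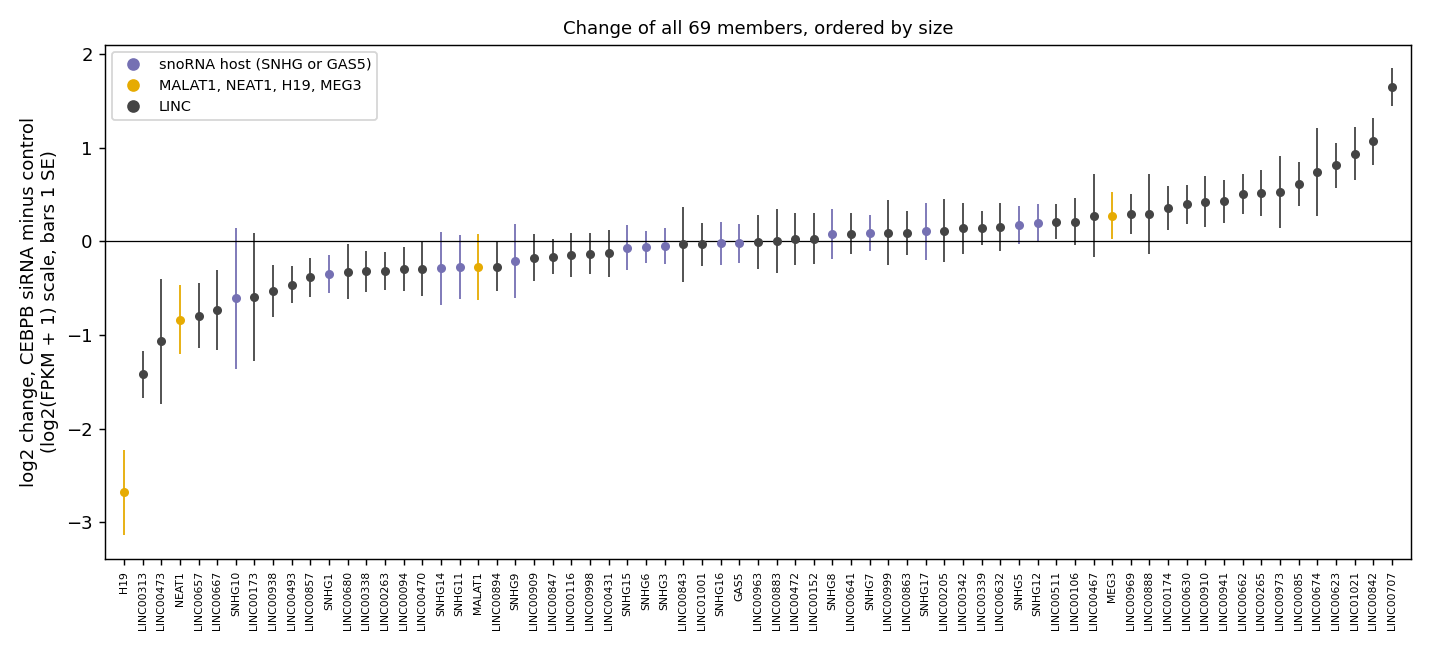
Difference between CEBPB siRNA and control (vertical axis, log2(FPKM + 1) scale) for each of the 69 members, ordered along the horizontal axis by size; points are limma estimates, bars 1 SE, n = 2 libraries per group. Points run from -2.68 (H19) to 1.65 (LINC00707), and the snoRNA hosts lie between -0.61 and 0.19.

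H19, the imprinted RNA of chromosome 11 that neighbours IGF2, had the largest difference of any member. Its level was 12.1 and 20.4 FPKM in controls 1 and 2, 0.726 under siRNA-1 and 2.97 under siRNA-2. Both siRNA libraries were far below both controls, with siRNA-1 the lowest. H19 fell in the authors' deposited table, by 3.54 on the log2 scale (adjusted p = 4.17e-10). Limma gave a log2 change of -2.68 ± 0.46 (SE, n = 2 libraries per group) and an adjusted p of 0.120, which misses the threshold of 0.05. Limma called it in the 3-group fit (adjusted p = 0.0150), which called 6.9% of all genes. It also passed with the replicate number as a block (limma adjusted p = 0.0466). The log2 change was -3.28 without siRNA-2, -2.08 without siRNA-1, -3.03 without control 1 and -2.33 without control 2. In bulk RNA, fewer expressing cells and less RNA per cell cannot be told apart.

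Other genes of the H19 region and of its known protein partners were read from a fixed list of 7. IGF2, the growth factor gene that shares H19's enhancers, was low throughout, at 0.390 and 0.311 FPKM under control siRNA and 0.962 and 0.818 with the siRNAs. It did not reach the mean of 1 FPKM and did not pass in the authors' deposited table (adjusted p = 0.674). KCNQ1OT1, the imprinted antisense RNA of the neighbouring domain, was under 0.1 FPKM in every library, at 0.0458 to 0.0936. IGF2BP2, an RNA-binding protein of the family that binds IGF2 and H19 RNA, was at 8.25 and 7.74 FPKM under control siRNA and at 20.6 and 17.2 with the siRNAs. It rose in the authors' deposited table (log2 change 1.02, adjusted p = 0.0105), while limma gave 1.14 ± 0.19 and an adjusted p of 0.112. Of the same family, IGF2BP3 (15.9 and 13.7 against 28.8 and 12.6 FPKM) and IGF2BP1 (24.1 and 19.8 against 38.6 and 23.1 FPKM) had overlapping groups. Of the list, 4 genes were tested. Limma called 0 of them (beside 0.235% of all genes). The authors' deposited table called 1 higher and 0 lower (beside 4.14% called in either direction). Such counts say little in so short a list. MEG3, also an imprinted gene, stood at 1.15 and 0.839 FPKM under control siRNA and at 1.27 and 1.55 with the siRNAs. Both siRNA libraries were the higher ones, with a log2 change of 0.28 ± 0.25 and a limma adjusted p of 0.714.

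LINC00707, a transcript of chromosome 10, was the member with the highest change. It was at 2.104 and 2.392 FPKM under control siRNA, 9.84 under siRNA-1 and 8.56 under siRNA-2. The siRNA libraries lay close together and well above both controls. In the authors' deposited table LINC00707 rose by 2.01 on the log2 scale (adjusted p = 1.13e-06). Limma gave 1.65 ± 0.20 and an adjusted p of 0.0767, which misses the threshold of 0.05. The 3-group limma fit, which called 6.9% of all genes, called it (adjusted p = 0.0149). The log2 change was 1.74 without siRNA-2, 1.56 without siRNA-1, 1.59 without control 1 and 1.71 without control 2. Its flanking protein-coding genes in RefSeq are PRKCQ, a protein kinase C gene, and SFMBT2, a Polycomb group gene. PRKCQ was at 3.57 and 4.18 FPKM under control siRNA and 2.36 and 4.14 with the siRNAs, and SFMBT2 at 2.53 and 2.36 against 1.74 and 4.17. Neither passed in limma or in the authors' deposited table, and their libraries overlapped between the groups.

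LINC00842, also on chromosome 10, was at 3.83 and 4.91 FPKM under control siRNA, 12.2 under siRNA-1 and 8.49 under siRNA-2. Both siRNA libraries exceeded both controls, siRNA-1 the more. LINC00842 rose in the authors' deposited table by 1.30 on the log2 scale (adjusted p = 0.0223). Limma gave 1.07 ± 0.25 with an adjusted p of 0.194, and the change was 1.31 without siRNA-2 and 0.83 without siRNA-1. RefSeq places it between ANXA8L1, an annexin gene, and NPY4R, a pancreatic polypeptide receptor gene, a stretch rich in near-identical gene copies, so its reads may be shared. ANXA8L1 was at 2.03 and 3.52 FPKM under control siRNA and 15 and 4.45 with the siRNAs. NPY4R was at 2.15 and 3.52 against 5.10 and 6.38. GPRIN2, the next protein-coding gene, picked after its values were seen, was at 6.94 and 7.86 against 11.3 and 16.7. The siRNA libraries of all 3 neighbours were above both controls, as they were for 23.5% of all genes. None of the 3 passed in limma (adjusted p = 0.402, 0.305 and 0.276) or in the authors' deposited table.

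LINC00313, on chromosome 21, was the second-lowest member by log2 change. It was at 3.56 and 2.83 FPKM under control siRNA and at 0.421 and 0.715 with siRNA-1 and siRNA-2, so the groups did not overlap. Limma gave -1.42 ± 0.25 (adjusted p = 0.127), with -1.55 without siRNA-2 and -1.28 without siRNA-1. LINC00313 met the mean of 1 FPKM only through its controls (siRNA mean 0.568), so the choice of members favours a fall. The authors' deposited table, with a mean normalised count of 18.1, gives a log2 change of -1.25 and an adjusted p of 0.673. LINC01021, now named PURPL, is a p53-induced RNA known to restrain p53 levels. It was at 5.90 and 4.23 FPKM under control siRNA and at 8.26 and 13.3 with the siRNAs. The siRNA libraries were both the higher ones, with a log2 change of 0.94 ± 0.29 that did not pass in limma (adjusted p = 0.287) or in the authors' deposited table (adjusted p = 0.228).

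**Figure D2:**
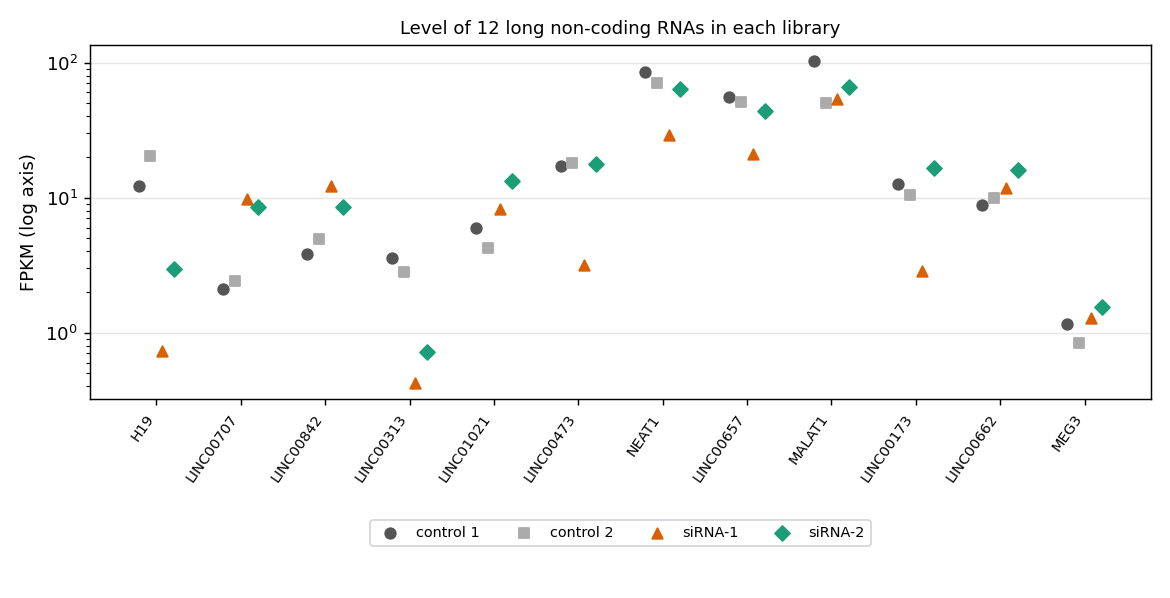
Level (vertical axis, FPKM on a log axis) of 12 members in each library; circles and squares are controls 1 and 2, triangles siRNA-1 and diamonds siRNA-2. H19 and LINC00313 have both siRNA libraries below the controls, LINC00707, LINC00842 and LINC01021 have both above, and LINC00473 (3.17 FPKM) and LINC00173 (2.84 FPKM) are low only with siRNA-1.

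NEAT1 and MALAT1, neighbours on chromosome 11, were among the 5 most abundant members. NEAT1 was at 85.5 and 70.9 FPKM under control siRNA, 29.2 under siRNA-1 and 63.9 under siRNA-2. The siRNA-2 value lay just below the controls and the siRNA-1 value far below. Limma gave -0.83 ± 0.37 (adjusted p = 0.458), with -1.39 without siRNA-2 and -0.28 without siRNA-1. NEAT1 did not pass in the authors' deposited table (log2 change -0.66, adjusted p = 0.420). The gene has a short and a long form that share their start, and a single value per gene does not separate them. MALAT1 was at 103 and 50.1 FPKM under control siRNA and at 53.7 and 66.0 with the siRNAs. Its controls differed from each other more than its siRNA libraries did, and the groups overlapped (log2 change -0.27 ± 0.35, limma adjusted p = 0.813).

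The protein partners of both RNAs were read from fixed lists. Of 21 tested paraspeckle protein genes, limma (0.235% of all genes called) and the authors' deposited table (4.14%) each called 0, counts that say little in a list of this size; the median log2 change was -0.01 and the range -0.50 to 0.29. SFPQ, which NEAT1 needs to form paraspeckles, was at 129 and 140 FPKM under control siRNA and 131 and 135 with the siRNAs. NONO, its partner, was at 252 and 279 against 211 and 273. Both sets overlapped between groups. Of 15 speckle and splicing protein genes, 0 were called in either table, which also says little, and the median was 0.03. SRSF1, a splicing factor bound by MALAT1, was at 138 and 139 FPKM against 125 and 155.

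LINC00657, now named NORAD, binds PUMILIO proteins and has been linked to chromosome stability. Its level was 55.7 and 51.1 FPKM under control siRNA, 20.9 under siRNA-1 and 43.9 under siRNA-2. As for NEAT1, both siRNA libraries were below the controls and siRNA-1 the lower. Limma gave -0.79 ± 0.35 (adjusted p = 0.451), with -1.31 without siRNA-2 and -0.28 without siRNA-1. The authors' deposited table gives -0.76 with an adjusted p of 0.237.

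LINC00473 is a cAMP-responsive RNA known from lung cancers that have lost the kinase LKB1. It was at 17.0 and 18.0 FPKM under control siRNA, 3.17 under siRNA-1 and 17.7 under siRNA-2. The siRNA-2 library was level with the controls and the siRNA-1 library was the single low value. In the 3-group limma fit the siRNAs differed by -2.17 ± 0.19 (siRNA-1 minus siRNA-2, 1 library each, adjusted p = 0.0434), the only 1 of the 69 members called in that contrast, where 0.441% of all genes were, 0.327% lower with siRNA-1. Its spread rests on the control pair, since a lone library per siRNA shows none. The count of 1 depends on the setting: 0 members passed with a pseudocount of 0.1 or with upper-quartile scaling, 4 with median-of-ratios scaling and 11 when genes needed a mean of at least 5 FPKM. The share of all genes called at these settings is not available here, so these counts cannot be read against a background. At an unadjusted p below 0.05 there were 19 members (27.5%, beside 22.4% of all genes). LINC00173 followed the same order (12.5 and 10.4 FPKM under control siRNA, 2.84 with siRNA-1, 16.6 with siRNA-2). Its difference, siRNA-1 minus siRNA-2, was -2.19 and did not pass. The change from the controls was -1.69 without siRNA-2 and 0.50 without siRNA-1. LINC00467 had the opposite order, at 10.0 and 11.1 FPKM under control siRNA, 21.5 under siRNA-1 and 7.66 under siRNA-2 (adjusted p = 0.0619).

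The 2 siRNA libraries also differed over the members as a group. The siRNA-1 library was the lower of the siRNA pair for 53 of 69 members (76.8%, beside 56.2% of all genes). Against the mean of the same controls, siRNA-1 gave a median difference of -0.11 and siRNA-2 one of 0.21. Differences over 1 on the log2 scale were seen for 10 members with siRNA-1 (14.5%, beside 10.3% of all genes) and for 5 with siRNA-2 (7.25%, beside 4.07%), while 2 members differed as much between the controls. H19, LINC00707 and LINC00313 differed from the controls by over 1 with both reagents, and their siRNA-1 and siRNA-2 differences were -3.28 and -2.08, 1.74 and 1.56, and -1.55 and -1.28. LINC00313 is a member only through its control level, a choice that favours a fall. The siRNA libraries share these controls, so the 2 sets of differences are not independent. Transcripts of the mitochondrial genome took 17.5% and 18.2% of control FPKM, 16.9% under siRNA-1 and 14.4% under siRNA-2, and the part of this in the results was not tested.

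**Figure D3:**
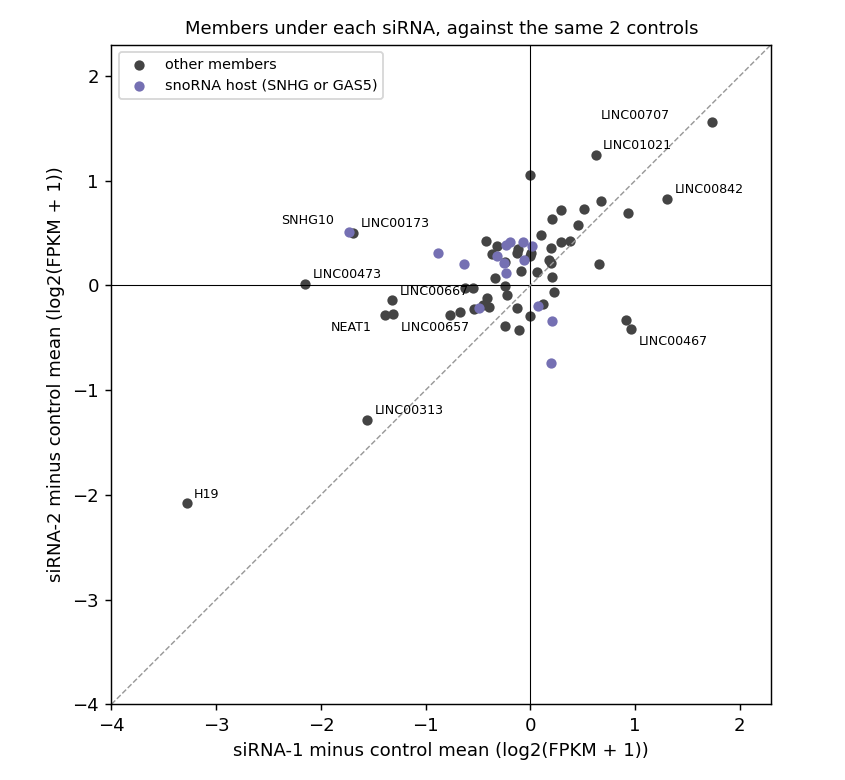
Difference of each member from the mean of the 2 controls with siRNA-1 (horizontal axis) and with siRNA-2 (vertical axis), both on the log2(FPKM + 1) scale; the dashed line marks equal values, and 1 library stands behind each axis. LINC00707 (1.74, 1.56) lies near the line, H19 (-3.28, -2.08) lies off it by 1.20, and LINC00473 (-2.15, 0.02) by 2.17.

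The 15 snoRNA hosts named SNHG or GAS5 differed little between the groups. Their log2 changes lay between -0.61 and 0.19 with a median of -0.05, 0 passed in limma (beside 0.235% of all genes), 0 had an unadjusted p below 0.05 (beside 12.2%) and 0 of 15 were called in the authors' deposited table (beside 4.14%). With call shares this low among all genes, 0 calls in 15 say little about the family. The groups did not overlap for 1 of the 15 (6.67%, beside 44.5% of all genes). SNHG1, the exception, was at 78.3 and 59.8 FPKM under control siRNA and 48.4 and 58.9 with the siRNAs, with a difference between 59.8 and 58.9 FPKM at the closest. Its limma change was -0.35 ± 0.20 (adjusted p = 0.561), whereas the authors' deposited table gives 0.03, so its direction depends on the measure. Limma and that table also gave opposite signs for SNHG5 (0.17 and -0.19), GAS5 (-0.02 and 0.08) and SNHG11 (-0.27 and 0.09). The same held for SNHG15 (-0.07 and 0.07), SNHG8 (0.08 and -0.01) and SNHG16 (-0.02 and 0.002). The remaining hosts had the same sign in both.

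SNHG5 was the most abundant member, at 128 and 119 FPKM under control siRNA, 118 under siRNA-1 and 165 under siRNA-2. GAS5, first found as a transcript that accumulates in growth-arrested cells, was at 111 and 128 FPKM under control siRNA and at 99.6 and 138 with the siRNAs. SNHG6 was at 73.0 and 66.6 FPKM against 73.4 and 60.8. For each of these 3 the siRNA values lie on both sides of the controls or between them. SNHG16 was at 42.9 and 45.0 FPKM under control siRNA and 35.0 and 53.5 with the siRNAs, and SNHG17 at 35.1 and 54.9 against 38.2 and 58.8. SNHG8 was at 19.3 and 25.2 FPKM against 18.7 and 29.2, and SNHG14, the long host on chromosome 15 that includes the SNORD115 and SNORD116 clusters, at 20.5 and 19.8 against 10.4 and 25.2. In these 4, siRNA-2 was above both controls, and siRNA-1 below both except in SNHG17.

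Of the remaining hosts, SNHG7 was at 18.9 and 21.8 FPKM under control siRNA and 19.4 and 24.2 with the siRNAs, and SNHG3 at 22.2 and 20.5 against 18.1 and 23.3. SNHG12 was at 13.0 and 11.7 FPKM against 12.5 and 16.2, and SNHG9 at 7.55 and 14.2 against 6.36 and 12.2. SNHG15 (8.56 and 8.57 against 10.1 and 6.54 FPKM) and SNHG11 (4.44 and 4.17 against 5.09 and 2.17 FPKM) had siRNA-1 as their highest library. SNHG10 was the most scattered host, at 3.79 and 8.27 FPKM under control siRNA, 1.01 under siRNA-1 and 8.51 under siRNA-2. Over the family, siRNA-2 was the highest of the 4 libraries for 10 of 15 hosts (66.7%, beside 27% of all genes) and siRNA-1 the lowest for 9 (60%, beside 38% of all genes), with median differences from the controls of 0.24 and -0.23. The hosts' summed level was 586.2 and 607.8 FPKM under control siRNA, 514.2 under siRNA-1 and 682.8 under siRNA-2. The median size of the log2 difference between the siRNA libraries was 0.552 for the hosts, beside 0.299 over all genes. No host passed the test between the siRNAs, but its spread rests on the control pair, so this says little about the family.

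**Figure D4:**
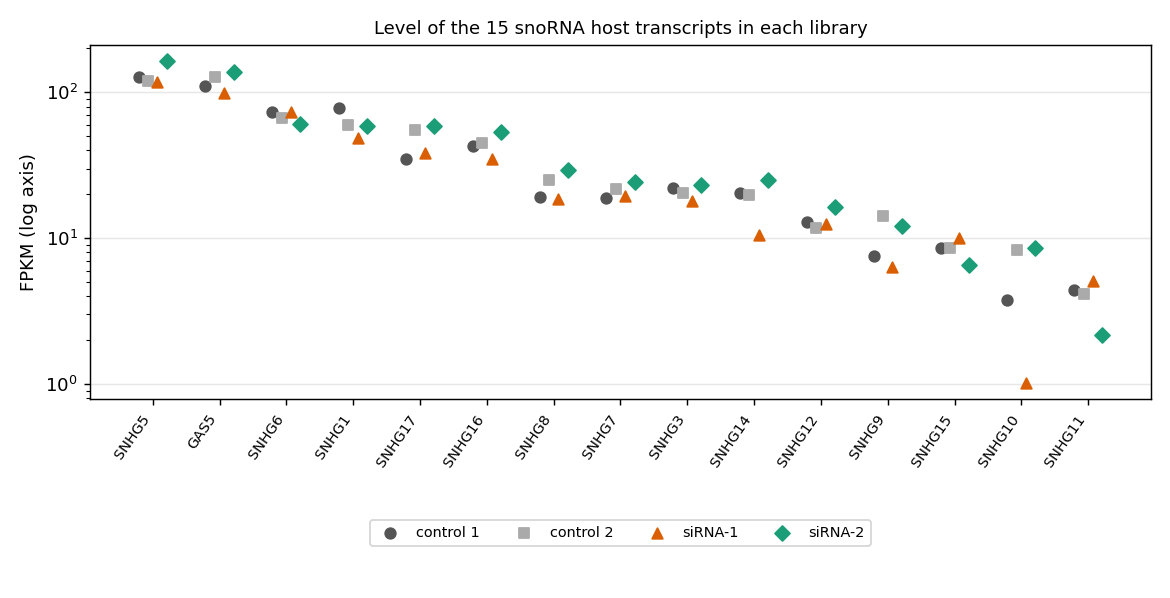
Level (vertical axis, FPKM on a log axis) of the 15 snoRNA hosts in each library, ordered by mean level; circles and squares are the controls, triangles siRNA-1 and diamonds siRNA-2. The diamonds are the highest point in 10 of the 15 hosts, and the triangle of SNHG10 (1.01 FPKM) stands lowest.

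Genes that act on these hosts were read from fixed lists too. Of 11 tested box C/D snoRNP genes, 6 box H/ACA snoRNP genes and 14 nonsense-mediated decay genes, limma called 0 (beside 0.235% of all genes). The authors' deposited table also called 0 of them (beside 4.14% of all its genes). With call shares this low among all genes, 0 calls say little about lists of this size. The median log2 changes of these lists were 0.00, -0.12 and 0.00, in that order. Of 23 messenger RNAs with a 5′-terminal oligopyrimidine tract, 0 were called in either table, which again says little, and the median was 0.01. RPS3, a small-subunit ribosomal protein gene and itself a snoRNA host, was the highest of them, at 1020 and 1140 FPKM under control siRNA and 1490 and 1840 with the siRNAs (log2 change 0.62, limma adjusted p = 0.276), whereas the authors' deposited table gives it a change of 0.01. Of 3 other non-coding snoRNA hosts, DANCR was at 30.8 and 31.9 FPKM against 18.7 and 29, and EPB41L4A-AS1 at 5.68 and 6.52 against 4.63 and 4.65, both below the controls with each siRNA. ZFAS1, the most abundant of the 3, was at 55.8 and 94.7 FPKM against 70.3 and 101, with overlapping groups (log2 change 0.21), and 0 of the 3 were called in either table.

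Among the remaining LINC members, several others had both siRNA libraries above both controls without passing in either table. LINC00662 was at 8.86 and 9.98 FPKM under control siRNA and at 11.8 and 16.1 with the siRNAs, a log2 change of 0.51 ± 0.22. LINC00085 (SPACA6) was at 6.59 and 4.56 against 8.24 and 9.75 FPKM (0.62 ± 0.23), and RefSeq places the let-7e, miR-99b and miR-125a genes inside it. LINC00265 (0.52), LINC00941 (0.43) and LINC00630 (0.40) were separated in the same direction. LINC00623 was at 0.963 and 1.07 FPKM against 2.85 and 2.26 (0.81 ± 0.24), but its mean count in the authors' deposited table is 0, as is that of LINC00431, so their levels are uncertain. LINC00674 (0.74), LINC00973 (0.52) and LINC00910 (0.42) had large estimates with overlapping groups. LINC00674 rested on control 2, at 1.83 FPKM beside 6.41 to 7.07 in the other libraries, and LINC00973 on siRNA-2, at 11.7 FPKM beside 4.30 to 6.05.

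On the lower side, LINC00493 (SMIM26), the most abundant of the protein-coding members, was at 49.1 and 44.8 FPKM under control siRNA and at 29.1 and 39.2 with the siRNAs. Both siRNA libraries were below the controls, with a log2 change of -0.46 ± 0.20 (limma adjusted p = 0.449). The change was -0.67 without siRNA-2 and -0.25 without siRNA-1. LINC00857 was at 6.74 and 6.96 FPKM against 4.39 and 5.71 (-0.38 ± 0.21), and LINC00938 at 1.67 and 2.05 against 0.676 and 1.35 (-0.53 ± 0.28). These 2 also had no overlap between groups and did not pass. LINC00667 was at 3.94 and 5.80 FPKM against 1.33 and 4.26, where siRNA-2 lay between the controls (-0.73 ± 0.43, limma adjusted p = 0.566). The change of LINC00667 was -1.32 without siRNA-2 and -0.14 without siRNA-1. LINC00152, now named CYTOR, was at 27.7 and 22.9 FPKM under control siRNA and 20.1 and 33.0 with the siRNAs, and LINC00511 at 15.7 and 12.6 against 16.3 and 16.5, with log2 changes under 0.3 in size. LINC00998 (SMIM30) was at 18.8 and 15.2 FPKM against 13.2 and 17.8, and its groups overlapped. All members listed at a mean of 10 FPKM or more numbered 25, and 18 members had a mean from 1 to 2 FPKM, where a few reads move a level.

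Just inside the mean of 1 FPKM were LINC00470 (1.21), MEG3 (1.20), LINC00863 (1.18) and LINC00472 (1.07), and just outside LINC00261 (0.971), LINC00669 (0.954), LINC00854 (0.927) and LINC00471 (0.829). Of the 515 rows below that mean, 390 were listed at 0 in every library. HOTAIR was listed at 0 in both controls and with siRNA-2 and at 0.126 FPKM with siRNA-1, and SNHG18 was listed at 0 throughout. The authors' deposited table gives an adjusted p for 36 of these rows and calls 2, beside 4.14% of all its genes. LINC00284 fell there (log2 change -4.61, adjusted p = 0.0183), from 1.17 and 1.09 FPKM under control siRNA to 0.0271 and 0.0327. LINC00704 rose there (adjusted p = 0.0213), from a listing of 0 in both controls to 1.75 FPKM under siRNA-1 and 0.479 under siRNA-2.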

How the data were processed

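Total RNA libraries of A549 cells (2 control siRNA, 1 of each of 2 CEBPB siRNAs) were strand-specific and read as 76-base single ends. The submitters' processing notes list DESeq2 1.26.0, HTSeq 0.13.5, StringTie 2.1.4, STAR 2.7.0d and the build hg19 without assigning roles. The deposited table gives 1 value per gene and library, taken as FPKM because the columns sum to different totals. Per the file headers, the other columns are a DESeq2 result: the signal column is the authors' mean normalised count, with the authors' log2 change and its SE, the Wald statistic (the deposited score), the p-value and adjusted p-value. These were quoted, not recomputed, and their sign was read against FPKM. No per-library counts were used.

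Differences were tested with limma 3.58.1 (R 4.3.3, with trended prior variance) on log2(FPKM + 1). The 14068 genes whose mean reached 1 FPKM were fitted and Benjamini-Hochberg adjusted together, and calls needed an adjusted p under 0.05. Residual degrees of freedom were 2, and the prior added 3.61. The siRNAs were contrasted in a 3-group fit with 1 residual degree of freedom. The smallest p that exact two-sided permutation of 2 against 2 libraries can reach is 0.333. The limma script was tested on simulated data. Names, neighbours and sequences came from RefSeq (GRCh38.p14) and GENCODE 29, of another build than the files, so no coordinate of theirs was joined to the table. Named members were the singly named RNAs, the SNHG genes, called members, the 12 highest and 12 lowest changes, the 10 most abundant and 4 on either side of the mean of 1; any other member was picked with its values in view. The members and lists were chosen with earlier results of these data known.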

Additional observations from a re-analysis of the deposited data

Results flagged for a closer look

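LINC00473 stood out because its siRNA libraries differed from each other in the test of that difference. The log2 difference, siRNA-1 minus siRNA-2, was -2.17 (3.17 and 17.7 FPKM), beside 17.0 and 18.0 FPKM under control siRNA, with a 3-group limma adjusted p of 0.0434. Each siRNA is represented by 1 library, so reagent and library cannot be told apart.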

How the results depend on the processing

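Of 28 members whose log2 change was recomputed, 302 of 328 values kept their direction and their side of the threshold, 18 gained a call and 8 turned sign. None of the 28 was called in the main fit, so no call could be lost, and a kept side of the threshold means staying uncalled. All sign changes came from leaving out 1 library: LINC00473 (-2.15 to 0.0154), MALAT1 (-0.783 to 0.243), GAS5 (-0.256 to 0.216), LINC00973 (-0.0035 to 1.05), SNHG10 (-1.73 to 0.513), LINC00173 (-1.69 to 0.502) and SNHG5 (-0.0656 to 0.414). Counts of members called moved from 0 higher and 0 lower to 2 and 5 with 3 groups, ranged from 0 to 3 and from 0 to 9 when 1 library was left out, and the 3 and 9 were without siRNA-2. Counts of all genes moved from 9 higher and 24 lower to 538 and 433 with 3 groups and to 0 and 0 with no filter (1487 and 951 at an unadjusted p below 0.05) once rows at 0 in every library were left out, a setting chosen after seeing the data; the planned fit over all rows was not run, since limma's prior could not be fitted reliably there. They ranged from 0 to 870 and from 0 to 894 when 1 library was left out: 0 and 0 without either control (465 and 271, or 389 and 296, at an unadjusted p below 0.05), while dropping siRNA-1 left 28 and 44, and dropping siRNA-2 gave 870 and 894. These fits assume that the lone library of a group varies as the other group does. With the replicate number as a block, 1 member (H19, adjusted p = 0.0466) and 14 genes were lower; the labels do not say that a number pairs libraries, and deviations of same-numbered libraries correlated at 0.0754 across genes. The members' median ranged from -0.11 to 0.21, the latter without siRNA-1. Between the siRNAs, the count of 1 moved to 0 with a pseudocount of 0.1, 11 with a mean of at least 5 FPKM, 4 with median-of-ratios and 0 with upper-quartile scaling. These counts stand without the share of all genes called at the same settings, which is not available here. The causes were not tested. Depth limits members with few reads, such as LINC00313 (mean normalised count 18.1).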
